A study of Mus musculus with 9 samples.

Results

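The mouse Ifi200 genes and Aim2 form 1 cluster of related genes on chromosome 1. The 9 genes described here, Ifi202b, Ifi203, Ifi204, Ifi205, Ifi207, Ifi208, Ifi209, Ifi211 and Aim2, were taken by symbol from the 54456 genes of the deposited count table, and all 9 were found in it. They were selected on the measured level of Ifi202b, which lay far below that of the empty microneedles when the device was loaded, and on kinship with it. Every value between those groups is therefore given as a description with no test. The same holds for Ifi202b in all comparisons, since each shares libraries with that choice.

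RNA-seq counts came from 9 libraries of polyadenylated RNA from mouse skin. Of these, 3 came from lesions treated with microneedles loaded with IL-2 and CCL22 (loaded), 3 from lesions treated with microneedles with no load (empty) and 3 from untreated lesions. The labels call all of them AA-like lesions, in a study of immune-mediated alopecia, and give no strain, age, sex or time after treatment. Whether a group's libraries are from different animals is not said either, so p-values measure only library-to-library spread, which may be technical.

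Proteins of this family, called PYHIN proteins, carry HIN domains that bind DNA, and most also carry a pyrin domain through which they assemble with other proteins. AIM2 is the receptor of a cytosolic DNA inflammasome: on binding DNA it recruits the adaptor ASC (the product of Pycard) and caspase-1, which matures IL-1β and IL-18. Ifi202b encodes a protein with HIN domains and no pyrin domain that restrains AIM2, and its expression is known to differ between inbred mouse strains. Ifi204 encodes a nuclear and cytosolic DNA sensor that acts with STING, and Ifi205 a regulator of ASC expression. Many of the genes are induced by interferons, and in skin they are expressed by leukocytes and by keratinocytes.

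The cluster was described in the selection as close copies, which matters for counting, because a read that matches several genes cannot be placed. The longest coding transcript of each gene in GENCODE M21 was cut into overlapping stretches of 50 and of 100 bases, and each stretch was looked up in the transcripts of all other genes. Ifi202b shared 0 of its 1648 stretches of 50 bases with any other gene, and Aim2 shared 0.932%, none of it with the family. Ifi211 shared 72.9%, mostly with Ifi205 (44.6%) and Ifi204 (30%). Ifi205 shared 49.6%, nearly all of it with Ifi211. The share was 35.1% for Ifi209, whose partner was Ifi214, 30.2% for Ifi204 and 26% for Ifi208. It was 10.9% for Ifi203 and 7.17% for Ifi207. At 100 bases Ifi211 still shared 56.9% and Ifi205 41.5%, against 3.31% for Ifi203 and 0.813% for Ifi207. In these reference transcripts the exonic sequence of Ifi202b, Aim2, Ifi203 and Ifi207 was therefore largely their own. Counts of Ifi211, Ifi205, Ifi209, Ifi204 and Ifi208 are uncertain where reads of shared stretches were divided or dropped. The strain of these mice is not given, and whether their sequence equals the reference was not checked. The sources used here give neither the read length nor the treatment of such reads, and intron sequence was not compared.

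**Figure D1:**
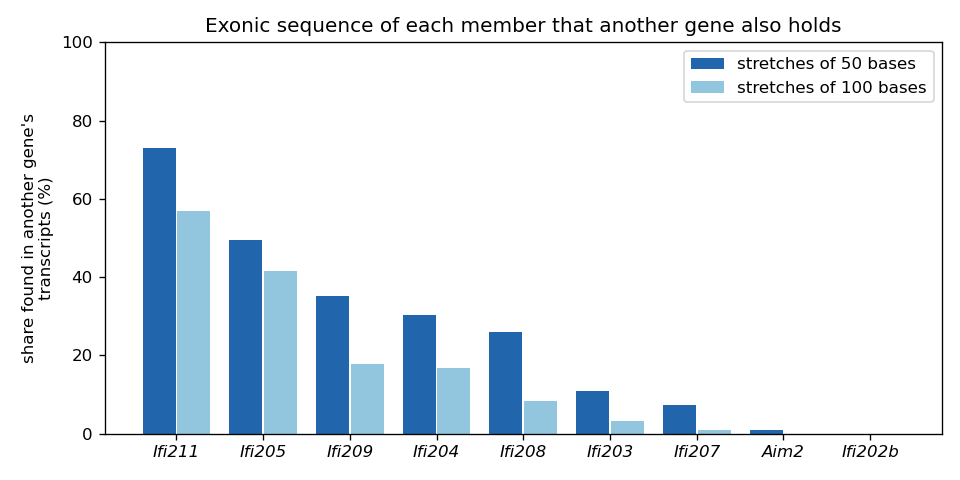
Share (%) of overlapping stretches of each member's longest coding transcript that also occur in a transcript of another gene, for stretches of 50 bases (dark bars) and 100 bases (light bars). Ifi211 (72.9% at 50 bases) and Ifi205 (49.6%) stand at the left, and Ifi202b is at 0 for both lengths.

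Promoters are shown next because the members did not all move together and share an interferon-type motif in part. RefSeq windows of 300 bases (250 before to 50 after an annotated start, GRCm38.p6) were available for 8 of the 9 members, all except Ifi204. The letters GAAANNGAAA, the core of the interferon-stimulated response element, were searched on both strands. They were found for 5 of these 8 members (Ifi203, Ifi205, Ifi207, Ifi208 and Ifi211) and for the related genes Mndal, Ifi206, Ifi213 and Ifi214, against 3.99% of all 27025 genes with such a window. These genes are related and several of the matched stretches are near copies, so the matches are not separate cases. Nothing is read from the difference from that share. Relative to an annotated start the match began at -35 in Ifi203, -37 in Ifi211, -41 in Ifi207, -58 in Ifi208 and -134 in Ifi205, which had another match on the opposite strand after the start. Another annotated window of Ifi203 held no match. Bases just after the RefSeq start were found near the start of a GENCODE M21 transcript of the gene for 4 of the 9 member windows. The distances therefore hold for the RefSeq starts only. No window of a member held both this motif and the next, so they do not overlap. Capitals mark the match in the following stretches, each read 5′ to 3′ along its gene's strand.

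Ifi203: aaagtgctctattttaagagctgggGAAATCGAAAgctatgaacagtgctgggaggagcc

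Mndal: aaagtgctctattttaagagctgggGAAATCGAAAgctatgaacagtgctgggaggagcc

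Ifi207: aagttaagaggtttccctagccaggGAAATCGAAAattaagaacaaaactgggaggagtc

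Ifi208: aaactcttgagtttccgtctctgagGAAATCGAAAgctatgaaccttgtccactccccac

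Ifi211: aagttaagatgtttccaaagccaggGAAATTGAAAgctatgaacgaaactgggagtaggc

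Ifi205: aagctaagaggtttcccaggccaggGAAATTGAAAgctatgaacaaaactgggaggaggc

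These stretches lie at chr1:173942493-173942552 (Ifi203), chr1:173880189-173880248 (Mndal), chr1:173741816-173741875 (Ifi207), chr1:173673582-173673641 (Ifi208), chr1:173913049-173913108 (Ifi211) and chr1:174031855-174031914 (Ifi205) of GRCm38.p6, on the minus strand except for Ifi208. The Ifi203 and Mndal stretches were identical. The windows of Ifi202b, Ifi209 and Aim2 held no GAAANNGAAA. The window of Ifi202b (chr1:173982795-173983094, minus strand) held the letters TTCNNNGAA, the core of the interferon-gamma activated site, also searched on both strands, which were found for 9.55% of all genes and for no other member. It is shown whole, with that match in capitals, because Ifi202b is the gene on which the selection rests.

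Ifi202b: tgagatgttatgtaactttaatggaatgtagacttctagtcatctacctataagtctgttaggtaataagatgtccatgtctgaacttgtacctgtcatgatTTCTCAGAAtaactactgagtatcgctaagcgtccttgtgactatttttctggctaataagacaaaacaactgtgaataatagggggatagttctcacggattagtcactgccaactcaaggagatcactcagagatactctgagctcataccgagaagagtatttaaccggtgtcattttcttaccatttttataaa

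A match is a description of the letters only, and the absence of a match says only that these letters are not in the window. All windows are those of the reference genome, which may differ from that of these mice.

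Total counts ran from 85962714 to 96740589 per library. The median squared difference was 8.92 to 19.3 times counting noise between libraries of different groups (27 pairs) and 1.83 to 3.53 times within groups (9 pairs). Mitochondrial transcripts made up 3.78% to 3.90% of counts with the loaded device, 3.31% to 3.42% with the empty device and 4.56% to 4.72% in untreated lesions. Markers of skin were present in every library: 10 epidermal keratinocyte markers summed to between 30307.2 and 51795.1 CPM. Levels are given as CPM, each count scaled to its library's size after TMM normalization. The edgeR quasi-likelihood test called a gene at a Benjamini-Hochberg adjusted p under 0.05 over all 26081 genes tested, and all 9 members were among those tested.

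Ifi202b was the member that differed most between the groups. It stood at 1.95, 1.69 and 1.85 CPM in the loaded libraries, 12.1, 11.7 and 13.9 CPM in the empty libraries and 5.92, 6.58 and 5.89 CPM in the untreated libraries. The 3 groups did not overlap: all loaded libraries were lowest, all empty libraries highest, and the untreated libraries in between. The mean was 1.83 ± 0.130 CPM with the loaded device, 12.6 ± 1.18 CPM with the empty device and 6.13 ± 0.391 CPM in untreated lesions (SD, n = 3 libraries each). The fitted log2 fold change was -2.78 (SE 0.085) for loaded against empty, a 6.88-fold lower level and the 8th lowest of the 26081 genes. It was -1.74 (SE 0.091) for loaded against untreated and 1.04 (SE 0.072) for empty against untreated. In these bulk samples, fewer cells that express a gene and less RNA per cell cannot be told apart. Ifi202b made up 6.32% ± 0.419 of the summed count of the 9 members with the loaded device, 26.7% ± 1.04 with the empty device and 14.4% ± 1.15 in untreated lesions.

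**Figure D2:**
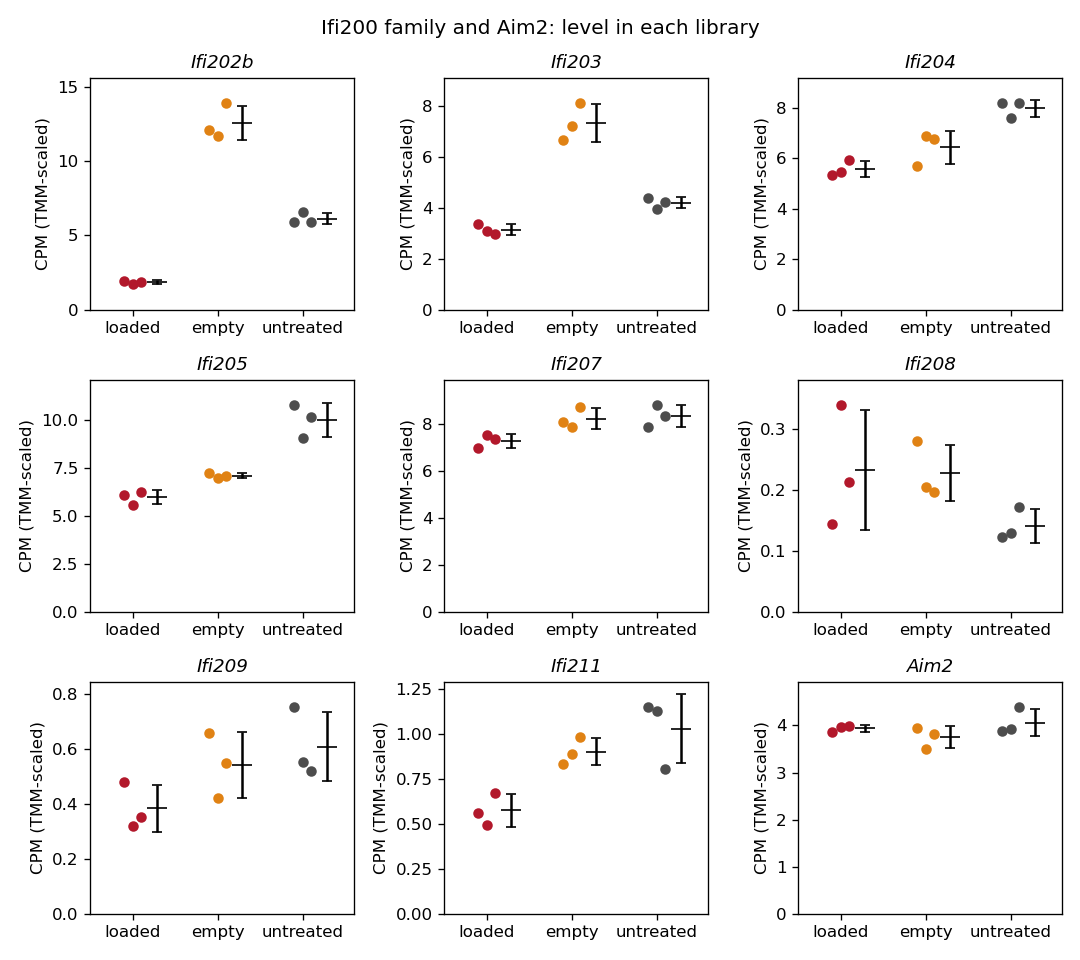
Level (CPM, TMM-scaled) of each member in every library, with loaded, empty and untreated groups from left to right in each panel; points are libraries, and the bar beside them is the mean ± SD of 3. Ifi202b and Ifi203 are highest with the empty device, Ifi204 and Ifi205 are highest in untreated lesions, and the groups overlap for Aim2.

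Ifi203, the gene next to Ifi202b on the chromosome and a PYHIN gene induced by interferon, had the same order of groups over a smaller range. It stood at 3.38, 3.08 and 2.97 CPM in the loaded libraries, 6.66, 7.22 and 8.11 CPM in the empty libraries and 4.39, 3.97 and 4.24 CPM in the untreated libraries. Again the 3 groups did not overlap. Ifi203 fell with the loaded device against untreated lesions (log2 change -0.42, SE 0.089, adjusted p = 0.000318 by edgeR) and rose with the empty device against them (log2 change 0.805, SE 0.081, adjusted p = 1.81e-09 by edgeR). Between the devices its log2 fold change was -1.22 (SE 0.083).

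Ifi205 and Ifi204 had another order, with the untreated libraries highest. Ifi205 stood at 6.09, 5.56 and 6.28 CPM in the loaded libraries, 7.23, 7.00 and 7.11 CPM in the empty libraries and 10.8, 9.07 and 10.2 CPM in the untreated libraries. It fell against untreated lesions with the loaded device (log2 change -0.74, SE 0.070, adjusted p = 9.38e-10 by edgeR) and with the empty device (log2 change -0.49, SE 0.068, adjusted p = 5.09e-07 by edgeR). Its groups did not overlap in any of the 3 comparisons.

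Ifi204, the DNA sensor gene, stood at 5.33, 5.47 and 5.92 CPM in the loaded libraries, 5.69, 6.87 and 6.77 CPM in the empty libraries and 8.18, 7.59 and 8.19 CPM in the untreated libraries. Both device groups lay below all untreated libraries, while the device groups overlapped through empty library 1 and loaded library 3. Against untreated lesions Ifi204 fell with the loaded device (log2 change -0.52, SE 0.075, adjusted p = 1.63e-06 by edgeR) and with the empty device (log2 change -0.31, SE 0.073, adjusted p = 0.000796 by edgeR).

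Ifi211, whose exons are largely shared with Ifi205 and Ifi204, stood at 0.559, 0.493 and 0.671 CPM in the loaded libraries, 0.832, 0.890 and 0.985 CPM in the empty libraries and 1.15, 1.13 and 0.808 CPM in the untreated libraries. The loaded libraries lay below all others, and the empty and untreated libraries overlapped. It fell with the loaded device against untreated lesions (log2 change -0.84, SE 0.18, adjusted p = 0.000451 by edgeR), and with the empty device the log2 fold change was -0.19 (SE 0.17, edgeR adjusted p = 0.394).

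Ifi207, a PYHIN gene and the member with the highest level per length of counted row (introns included) in the loaded group, differed little. It stood at 6.96, 7.53 and 7.35 CPM in the loaded libraries, 8.07, 7.86 and 8.73 CPM in the empty libraries and 7.85, 8.80 and 8.35 CPM in the untreated libraries. The loaded libraries were lowest by a narrow margin and the other groups overlapped. The log2 fold change was -0.19 (SE 0.066, edgeR adjusted p = 0.0173) for loaded against untreated and -0.02 (SE 0.065, edgeR adjusted p = 0.830) for empty against untreated. The call for the loaded device was lost without loaded library 1 (edgeR adjusted p = 0.0887), without untreated library 2 (0.104) and with library size alone as the scaling (0.489).

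Ifi209 and Ifi208 were the members with the lowest counts. Ifi209 had 43, 29 and 33 counts in the loaded libraries, 61, 41 and 53 in the empty libraries and 62, 47 and 45 in the untreated libraries. It was called lower for loaded against untreated (log2 change -0.66, SE 0.24, adjusted p = 0.0243 by edgeR), but the call was lost without loaded library 2 or 3 (edgeR adjusted p = 0.110 and 0.0820), without untreated library 1 (0.159) and with library size alone (0.0656). Ifi208 had 13, 31 and 20 counts in the loaded libraries, 26, 20 and 19 in the empty libraries and 10, 11 and 15 in the untreated libraries. Its log2 fold changes against untreated lesions, 0.71 (SE 0.37, edgeR adjusted p = 0.127) with the loaded and 0.68 (SE 0.37, edgeR adjusted p = 0.136) with the empty device, did not pass and are imprecise at this depth.

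Aim2, the inflammasome receptor gene, was called in neither comparison with untreated lesions. It stood at 3.86, 3.97 and 3.99 CPM in the loaded libraries, 3.95, 3.51 and 3.81 CPM in the empty libraries and 3.88, 3.92 and 4.39 CPM in the untreated libraries, and all groups overlapped. Its log2 fold changes were -0.04 (SE 0.084, edgeR adjusted p = 0.720) for loaded and -0.11 (SE 0.084, edgeR adjusted p = 0.280) for empty against untreated lesions. The counted row of Aim2 spans 115162 bases, introns included, and 16817 of them overlap the row of Cadm3 on the opposite strand, so its count may hold or lack reads of that gene.

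Of the 8 members other than Ifi202b, 6 fell and 0 rose with the loaded device against untreated lesions, where 42.3% of all genes tested were called, 23.3% lower and 19.0% higher. Among these 6, Ifi211 shares many exonic stretches with Ifi205 and Ifi204, so their counts are not fully separate measurements. The calls of Ifi207 and Ifi209 were lost in some settings, as given above. All 9 counted, with Ifi202b as a description only, 7 were lower with no overlap between the groups and 0 higher. Of all genes, 52.7% did not overlap, 28.1% lower and 24.6% higher. With library size alone as the scaling, 4 of the 8 were called lower. Of all genes called under that scaling, 68.1% were higher. The median log2 fold change of the 8 members without Ifi202b was -0.468, against -0.01 over all genes tested. With Ifi202b the median was -0.52. With the empty device, 2 fell (Ifi204 and Ifi205) and 1 rose (Ifi203), where 48.3% of genes were called, 28.1% lower and 20.2% higher. All 9 counted, 2 were lower with no overlap and 3 higher (Ifi203, Ifi208 and, as a description only, Ifi202b). Of all genes, 54.6% did not overlap, 31.1% lower and 23.5% higher. The median of the 8 members without Ifi202b was -0.14, against -0.02 over all genes. With Ifi202b the median was -0.11. That median of all 9 came to -0.01 without empty library 2, -0.06 without untreated library 1 or 3 and -0.01 with library size alone. Between the loaded and the empty libraries, 5 members were lower with no overlap (Ifi202b, Ifi203, Ifi205, Ifi207 and Ifi211) and 0 higher, where 50.8% of all genes did not overlap, 22.7% lower and 28.1% higher. The selection used that comparison, and nothing is read from this count.

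The members were also summed, since a sum does not depend on how reads were divided among the members alone. It still depends on shared reads that were dropped or given to genes outside the sum. Ifi209 shared 34.7% of its stretches of 50 bases with Ifi214, Ifi208 21% with Ifi213, and Ifi211 and Ifi205 17.1% and 16.8% with Mndal. The 9 members together stood at 28.9 ± 0.601 CPM with the loaded device, 47.1 ± 2.67 CPM with the empty device and 42.5 ± 0.678 CPM in untreated lesions (SD, n = 3 libraries each). Without Ifi202b the sum was 27.1 ± 0.561 CPM with the loaded device, 34.5 ± 1.52 CPM with the empty device and 36.4 ± 1.06 CPM in untreated lesions. The empty mean was thus above the untreated mean with Ifi202b in the sum and below it without, while the loaded group was lowest in both sums. Without Ifi202b the empty libraries (33.4, 34.0 and 36.3 CPM) overlapped the untreated libraries (37.1, 35.2 and 36.9 CPM).

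Per length of counted row, the order of the members differed between the groups. In CPM per kb of counted row, Ifi207 was highest with the loaded device at 0.397 ± 0.0158, Ifi202b highest with the empty device at 0.623 ± 0.0587, and Ifi205 had the highest mean in untreated lesions at 0.506 ± 0.0444. In the loaded group Ifi205 (0.302 ± 0.0190) and Ifi204 (0.284 ± 0.0157) came next and lay within their spread of each other, followed by Ifi203 (0.141 ± 0.00940) and Ifi202b (0.0906 ± 0.00645). In the empty group Ifi202b was followed by Ifi207 (0.449 ± 0.0248), Ifi205 (0.359 ± 0.00573), Ifi203 (0.329 ± 0.0327) and Ifi204 (0.328 ± 0.0332), of which Ifi205, Ifi203 and Ifi204 were within their spread. In untreated lesions Ifi207 (0.455 ± 0.0260), which overlapped Ifi205, and Ifi204 (0.406 ± 0.0174) followed, ahead of Ifi202b (0.304 ± 0.0194) and Ifi203 (0.189 ± 0.00945). Ifi211, Aim2, Ifi209 and Ifi208 were the 4 lowest members in all 3 groups, between 0.00572 and 0.0617 CPM per kb. These lengths include introns, so the order holds for counted rows and not for transcript length. The row of Aim2 spans 115162 bases, against 2839 for its longest coding transcript. In CPM, Aim2 (3.94 ± 0.0730) was above Ifi203 (3.14 ± 0.209) and Ifi202b (1.83 ± 0.130) in the loaded group, but not in the other groups.

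The members lie between 173178445 and 173859376 of chromosome 1 in mm39, 681 kb that hold 21 rows of the table, Aim2 first and Ifi205 last. Of the 12 other rows, 5 had enough counts to be tested, and they included 3 of the family by name. Mndal, a PYHIN gene, stood at 1.35, 1.24 and 1.29 CPM in the loaded libraries, 4.10, 4.37 and 4.97 CPM in the empty libraries and 1.94, 2.20 and 2.40 CPM in the untreated libraries. Its groups did not overlap, and it was highest with the empty device. Mndal shared 27.2% of its stretches of 50 bases with other genes, so its count is uncertain like that of Ifi208. The main partners of Ifi203 in shared stretches were Ifi203-ps (5.43%) and Mndal (5.18%), so the levels of these 3 rows are not fully separate measurements. Mndal fell with the loaded device against untreated lesions (log2 change -0.76, SE 0.12, adjusted p = 6.49e-06 by edgeR) and rose with the empty device (log2 change 1.04, SE 0.10, adjusted p = 1.11e-09 by edgeR). Ifi203-ps, a pseudogene by its name, stood at 0.598 ± 0.0521 CPM with the loaded device, 1.32 ± 0.127 CPM with the empty device and 0.843 ± 0.0611 CPM in untreated lesions. It rose with the empty device (adjusted p = 0.000802 by edgeR), and its fall with the loaded device (adjusted p = 0.0198 by edgeR) was lost with library size alone and without loaded library 3, untreated library 1 or untreated library 2. Ifi214, near the Aim2 end, had log2 fold changes of -0.50 (SE 0.36) with the loaded and 0.46 (SE 0.33) with the empty device, neither of which passed, and Ifi206 and Ifi213 had at most 10 counts in any library.

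The other tested rows, Gm7897 and Gm18445, were named after their values were seen and are described with no test. Gm7897, between Ifi203-ps and Mndal, stood at 0.295 ± 0.0528 CPM with the loaded device, 1.44 ± 0.0923 CPM with the empty device and 0.450 ± 0.0423 CPM in untreated lesions. Gm18445, between Ifi202b and Ifi205, stood at 1.44 ± 0.0772 CPM with the loaded device, 1.81 ± 0.182 CPM with the empty device and 4.79 ± 0.383 CPM in untreated lesions.

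**Figure D3:**
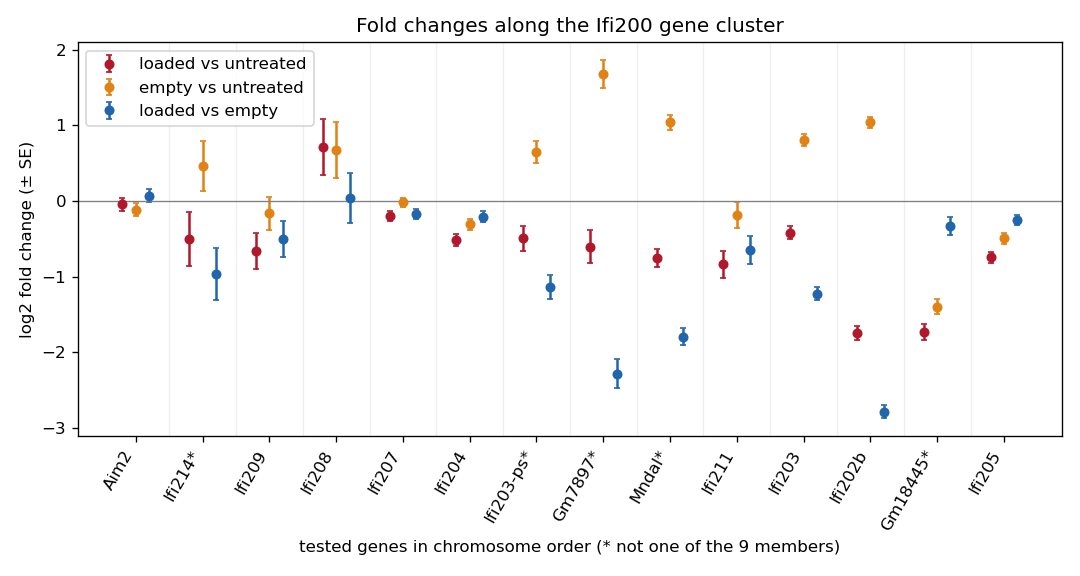
Log2 fold change ± SE of the 14 tested genes of the cluster, in chromosome order from Aim2 to Ifi205 (asterisks mark genes that are not members), for loaded against untreated (red), empty against untreated (orange) and loaded against empty (blue). Ifi214, Ifi203-ps, Gm7897, Mndal, Ifi203 and Ifi202b lie above 0 for empty against untreated and below 0 for loaded against untreated. Ifi208 lies above 0 in both and the other genes below 0 in both. Ifi214, Ifi208 and Aim2 passed in neither comparison, and Ifi209, Ifi207 and Ifi211 did not pass for empty against untreated.

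The genes whose profile over the 9 libraries was most like that of Ifi202b were searched among 13858 genes of at least 1 CPM, by the root mean square difference of mean-centred log2 CPM. Members were not candidates, nor were genes with a predicted, clone or pseudogene symbol such as Gm, Rik or -ps. The nearest was Fetub, the gene of a fetuin family protease inhibitor, at a difference of 0.119, where the median over all candidates was 1.16. Fetub stood at 2.40 ± 0.226 CPM with the loaded device, 17.1 ± 0.960 CPM with the empty device and 8.02 ± 0.624 CPM in untreated lesions. The next 4 were Aqp5, a water channel gene (0.287), Pitx1, a homeobox gene of hindlimb identity (0.316), Sprr2i, a small proline-rich gene of the cornified envelope (0.377), and Tmprss11b, a transmembrane serine protease gene of stratified epithelia (0.381). None of the 5 lies on chromosome 1. Within the cluster, the difference from Ifi202b was 0.477 for Mndal, 0.506 for Gm7897 and 0.689 for Ifi203. Mndal was among the candidates, and the 5 genes were picked as the nearest, so nothing is read from its larger difference. The 5 nearest genes to Aim2 were Arhgap22 (0.0217), Ttf1, Tbccd1, Cnga1 and Tgfbr3 (0.0448), which like Aim2 hardly varied, so that this likeness is that of flat profiles. These are descriptions of 9 libraries in 3 groups.

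**Figure D4:**
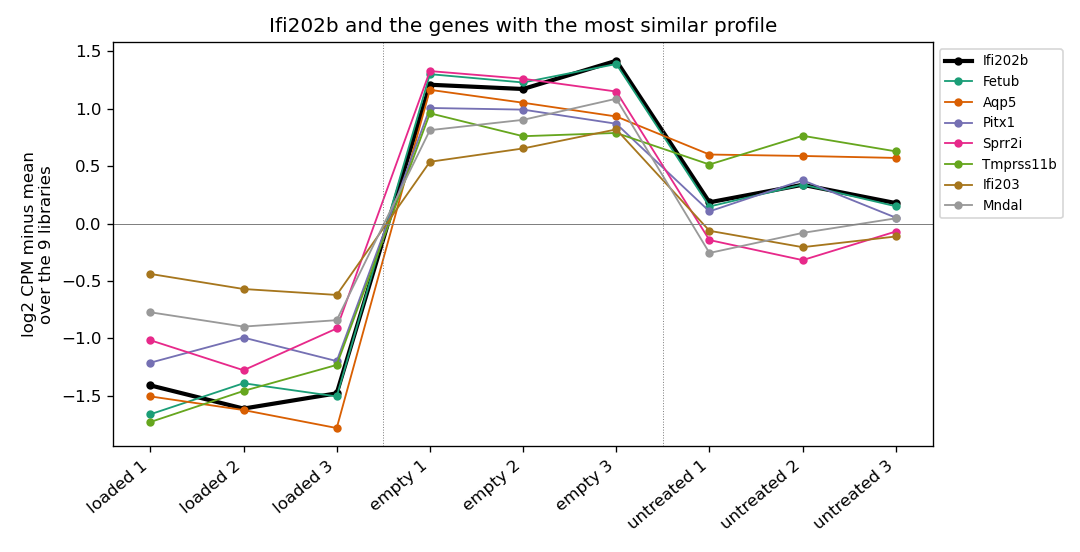
Mean-centred log2 CPM in each of the 9 libraries (loaded, empty, untreated from left to right) of Ifi202b (thick black line), its 5 nearest genes by profile, and Ifi203 and Mndal. All 8 genes are lowest in the loaded libraries; 7 are highest in the empty libraries, while the empty and untreated libraries of Tmprss11b overlap, and Fetub runs closest to Ifi202b.

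Other interferon-stimulated genes were lower than in untreated lesions with both devices. Of 20 such genes tested, 20 fell with the loaded device against untreated lesions, at a median log2 fold change of -0.80. With the empty device 15 fell and 0 rose, at a median of -0.57. Of all genes tested, 23.3% were called lower and 19.0% higher with the loaded device, and 28.1% lower and 20.2% higher with the empty device. With library size alone 19 fell and 0 rose with the loaded device, and 14 fell and 1 rose with the empty device. Under that scaling 68.1% of all calls with the loaded device and 57.9% with the empty device were higher. Ifit1, an antiviral effector gene, stood at 3.36 ± 0.115 CPM with the loaded device, 3.47 ± 0.169 CPM with the empty device and 14.7 ± 1.37 CPM in untreated lesions. Ifi44, Isg15 and Oasl2 changed by -1.73, -1.08 and -1.05 on the log2 scale with the loaded and by -1.70, -1.18 and -1.04 with the empty device. The devices share the untreated libraries as their reference.

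Genes of interferon ligands, receptors and signalling were called in both directions. Of 17 tested, 11 fell and 1 rose with the loaded device (median -0.26), and 9 fell and 5 rose with the empty device (median -0.11). Over all genes tested, 23.3% fell and 19.0% rose with the loaded device, and 28.1% fell and 20.2% rose with the empty device. With library size alone 8 fell and 3 rose with the loaded device, and 5 fell and 6 rose with the empty device. Among all genes called with that scaling, 68.1% were higher with the loaded and 57.9% with the empty device. Usp18, a feedback inhibitor of type I interferon signalling, Irf9, the gene of an interferon-activated transcription factor, and Ifngr2, an interferon-gamma receptor chain, changed by -1.06, -0.43 and -0.26 on the log2 scale with the loaded device.

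A list of 18 inflammasome genes held the shared adaptor and effectors, and also sensors of other inflammasomes such as Nlrp3, Nlrc4 and Mefv, so its counts are not those of the AIM2 inflammasome alone. Of these 18, 12 fell and 0 rose with the loaded device against untreated lesions (median -0.36), and 9 fell and 3 rose with the empty device (median -0.17). The shares over all genes tested were 23.3% lower and 19.0% higher with the loaded device, and 28.1% and 20.2% with the empty device. With library size alone 9 fell and 1 rose with the loaded device, and 8 fell and 4 rose with the empty device. That scaling made 68.1% of all calls with the loaded device and 57.9% with the empty device higher. Casp1, the gene of the effector caspase, stood at 32.1 ± 1.18 CPM with the loaded device, 36.9 ± 0.175 CPM with the empty device and 53.3 ± 3.71 CPM in untreated lesions. Pycard, the gene of the adaptor ASC, named here after its values were seen, stood at 51.3 ± 2.29 CPM with the loaded device, 64.4 ± 2.05 CPM with the empty device and 90.3 ± 7.97 CPM in untreated lesions. With the loaded device Il1a, Casp4 and Il18, the genes of a cytokine of the IL-1 family, of a caspase that senses lipopolysaccharide and of a caspase-1 substrate, changed by -0.89, -0.75 and -0.94 on the log2 scale.

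Of 19 other genes of cytosolic nucleic acid sensing tested, 14 fell and 0 rose with the loaded device (median -0.23), and 12 fell and 2 rose with the empty device (median -0.20). Over all genes tested, 23.3% fell and 19.0% rose with the loaded device, and 28.1% fell and 20.2% rose with the empty device. With library size alone 9 fell and 4 rose with the loaded device, and 9 fell and 5 rose with the empty device. The share of all calls that were higher was then 68.1% with the loaded and 57.9% with the empty device. Sting1, the gene of the adaptor with which the IFI204 protein acts, stood at 5.28 ± 0.173 CPM with the loaded device, 5.19 ± 0.396 CPM with the empty device and 8.81 ± 0.446 CPM in untreated lesions. Samhd1, which encodes a nucleotide hydrolase that limits viral DNA synthesis, Zbp1, the gene of a sensor of left-handed nucleic acids, and Ifih1, the gene of an RNA sensor, changed by -0.91, -0.995 and -0.35 on the log2 scale with the loaded device. With the empty device these genes changed by -0.13, -0.95 and -0.20.

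**Figure D5:**
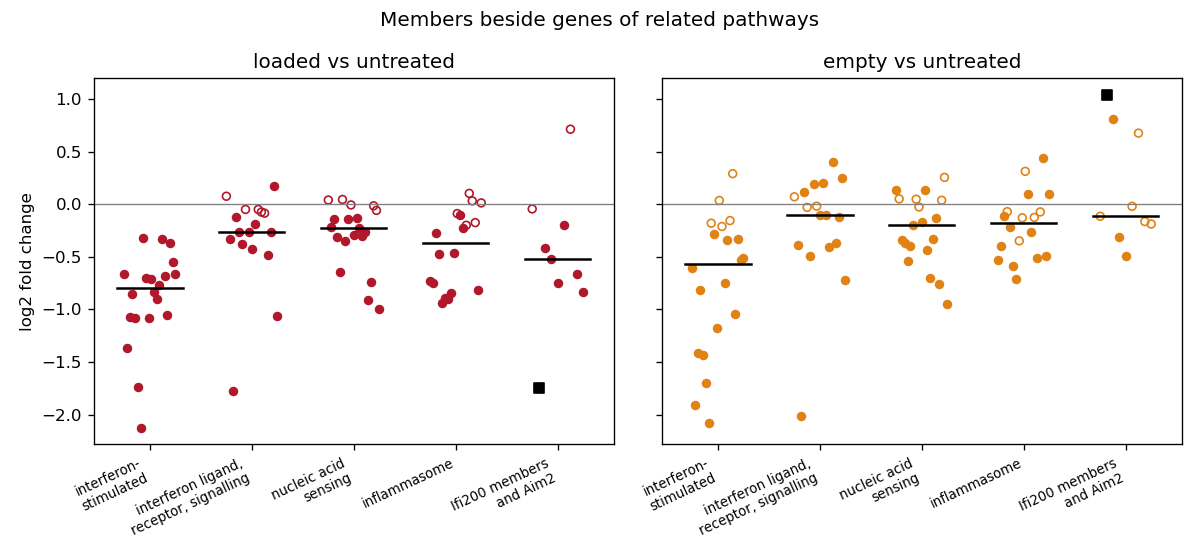
Log2 fold change of each gene for loaded against untreated (left panel) and empty against untreated (right panel), for 4 gene lists and the 9 members. Filled circles passed the edgeR test and open circles did not. The black square is Ifi202b, for which no test is reported, and black lines are medians. The medians of the interferon-stimulated genes are -0.80 and -0.57, and those of the 9 members, Ifi202b included, are -0.52 and -0.11.

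Summed markers of cell types differed between the groups. The 10 macrophage markers summed to 176.5 to 189.3 CPM in the loaded libraries, 228.2 to 233.8 CPM in the empty libraries and 257.6 to 271.3 CPM in the untreated libraries, the same order as Ifi204 and Ifi205. Of them, 9 fell and 1 rose with the loaded device, and 7 fell and 1 rose with the empty device. The shares over all genes tested were 23.3% lower and 19.0% higher with the loaded device, and 28.1% and 20.2% with the empty device. The 10 epidermal keratinocyte markers summed to 30307.2 to 32340.0 CPM in the loaded libraries, 50508.2 to 51795.1 CPM in the empty libraries and 42703.7 to 43961.8 CPM in the untreated libraries, the same order as Ifi202b, Ifi203 and Mndal. The largest ratio between groups in that sum was smaller than that of Ifi202b. Of its 10 genes, 4 rose and 5 fell with the empty device, and 0 rose and 9 fell with the loaded device. Krt10 and Krt1 were its largest terms, at 22076.6 and 12577.8 CPM in the empty group and 15742.8 and 9396.5 CPM in the untreated group. Krt14 went the other way, at 4064.0 CPM in the empty and 7223.0 CPM in the untreated group. The order of the sum is therefore not that of every marker in it. The 10 T cell markers summed to 31.2 to 33.3 CPM in the loaded libraries, 36.9 to 40.1 CPM in the empty libraries and 47.6 to 53.1 CPM in the untreated libraries. The 10 dendritic or Langerhans cell markers summed to 123.2 to 126.4 CPM in the loaded libraries, 147.1 to 150.7 CPM in the empty libraries and 152.6 to 156.2 CPM in the untreated libraries. Other lists shared these orders. The 10 skeletal muscle markers summed to 7084.0 to 7598.4 CPM in the loaded libraries, 9742.0 to 11395.3 CPM in the empty libraries and 7845.6 to 8081.6 CPM in the untreated libraries, the order of the keratinocyte sum. The 10 fibroblast markers summed to 1087.0 to 1119.1 CPM in the loaded libraries, 1390.4 to 1495.3 CPM in the empty libraries and 1613.8 to 1667.6 CPM in the untreated libraries, the order of the macrophage sum. The sum of the 10 adipocyte markers was highest with the loaded device, at 1102.8 to 1148.1 CPM. It was 628.3 to 679.2 CPM with the empty device and 954.8 to 1037.5 CPM in untreated lesions. Of these 10, 7 rose and 0 fell with the loaded device, and 3 rose and 7 fell with the empty device. Fabp4 was the largest term of the sum, at 622.2 ± 10.5 CPM in the loaded group. Slc2a4 had its highest mean with the empty device (31.8 CPM) and Lep in untreated lesions (4.36 CPM). Neutrophil markers summed to 16.4 to 19.7 CPM in the loaded libraries, 28.1 to 29.4 CPM in the empty libraries and 27.9 to 29.8 CPM in the untreated libraries, and the summed B cell markers were likewise lower in all loaded libraries than in any other library. No marker of these 9 lists was at 0 in all 9 libraries. The part of these cells, and of the mitochondrial share, in the members' levels was not tested.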

How the data were processed

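The submitters' processing notes name HISAT2, featureCounts and the build mm39. The authors deposited raw counts per gene, with 1 column for each of the 9 libraries. The sources used here give no tool versions, annotation, strand setting or read length. The counted length equalled the whole span for 99.9% of rows and for all 9 members, so introns were counted. Groups followed the treatment labels. Genes passing filterByExpr (minimum count 10, minimum total 15) were scaled with TMM and fitted in edgeR 4.0.16 (R 4.3.3) with all 9 libraries, 1 coefficient per group and the robust quasi-likelihood test. The SE is the log2 fold change divided by the root of the F statistic. Steps were tested on simulated counts. DESeq2 1.42.0 and limma 3.58.1 were alternatives, with other scalings, filters and omitted libraries. Members and lists were chosen with earlier results of these data known. Named were all members, family genes of the cluster, up to 4 genes per list with the smallest p for loaded against untreated (1 of them is not reported here), and 5 nearest genes by profile (log2 CPM, prior count 2). Sequences are from RefSeq (GRCm38.p6) and GENCODE M21 (GRCm38). Same-numbered libraries did not deviate together (correlations of -0.0187 to 0.0150 over 9 pairs).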

Additional observations from a re-analysis of the deposited data

How the results depend on the processing

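Scaling by library size alone moved the median of all genes to 0.12 on the log2 scale for loaded against untreated and to 0.088 for empty against untreated. It moved the median of the 9 members for loaded against untreated to -0.385, and the share of calls that were higher to 68.1%, against 44.9% with TMM, and for empty against untreated to 57.9%, against 41.7%. With upper-quartile scaling that share was 53.0% for empty against untreated, and 44.4% for loaded against empty, against 55.3% with TMM. The signs that turned belonged to values near 0 or to the sum. Aim2 for loaded against untreated became 0.087 with library size alone and ran from -0.078 to 0.013 on leaving out 1 library. Ifi207 for empty against untreated became 0.0101 with DESeq2 size factors, with or without its Wald test, 0.0102 when untreated and empty libraries were fitted alone, 0.084 with library size alone, 0.028 with a stricter filter and 0.050 with upper-quartile scaling, and ran from -0.064 to 0.018 on leaving out 1 library. Ifi208 for loaded against empty became -0.024 with limma-voom and -0.014 with upper-quartile scaling and ran from -0.334 to 0.282 on leaving out 1 library. Ifi209 for empty against untreated ran from -0.328 to 0.012. The log2 ratio of the summed members for empty against untreated was 0.148 with and -0.075 without Ifi202b. The causes were not tested. On leaving out each library in turn, 5 to 6 of the 8 members other than Ifi202b were called lower for loaded against untreated, and 2 lower and 1 higher for empty against untreated each time. Of all genes, 9552 to 11542 were then called for loaded against untreated, 43.4% to 47.8% of them higher. For empty against untreated 11630 to 12388 were called, 40.2% to 47.4% of them higher. A replicate block, which the labels' numbers allow but do not justify as pairing, gave 6 lower for loaded against untreated and 2 lower and 1 higher for empty against untreated, the counts also had without it. Over the 10 other settings, this block included, 10402 to 12460 genes were called for loaded against untreated. For empty against untreated 11720 to 13254 were called. Depth limits Ifi208 and Ifi209, with 10 to 62 counts per library.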
